A study of Mus musculus with 6 samples.

Results

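Most interleukin receptor subunits are transmembrane chains through which cells bind interleukins. Here 28 subunits, among them the soluble Il22ra2, were compared between F4/80high and F4/80low tumor-associated macrophages (TAMs). The members are the protein-coding genes of the deposited tables named Il, a number and r, plus Il6st, whose counts over the 6 libraries came to 10 or more. Names that begin with Il1r were left out by the rule, as were Il5ra, Il10ra and Il10rb, while Il18r1 and Il18rap were kept. Of 30 names that matched, Il20ra with 1 count in total and Il11ra2 with 6 counts fell under the minimum, which left 28 of the 14776 protein-coding genes tested and of the 23424 genes in the tables.

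The libraries were made from TAMs of YUMM1.7 tumors, a mouse melanoma line grown intradermally in female wild-type C57Bl/6J mice, 8 weeks of age by the labels, that were left untreated until harvest on day 21. Cells were sorted as live CD45+ CD11b+ F4/80+ and divided into F4/80high and F4/80low, and the study's methods add a lineage-negative gate. The 3 experiments, on 10 pooled tumors, gave 3 libraries of each subset, which were paired here by replicate number and hold no value for a single mouse. F4/80 is the macrophage surface protein encoded by Adgre1, and F4/80high and F4/80low libraries are named here by the number of their pair.

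Most of these chains work in combinations. A private chain binds its interleukin and pairs with a shared chain, such as the common gamma chain Il2rg for the IL-2 group or gp130 (Il6st) for the IL-6 group, and Janus kinases bound to the chains then phosphorylate STAT proteins. IL-17 and IL-18 receptors instead signal through adaptors such as Act1 (Traf3ip2) and Myd88. In macrophages, the IL-4 and IL-13 receptors are known for alternative activation, while the IL-2, IL-12 and IL-18 receptors are best known on T and NK cells.

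The libraries held between 16045281 and 43604373 counts. Replicate 3 of both subsets forms batch 2 in the study's own plot of its samples and has the smallest libraries, and replicates 1 and 2 form batch 1. Levels are given as CPM, counts relative to the TMM-scaled library size, and they are compared between genes only after division by gene length. On that CPM scale, 3 counts correspond to between 0.0582 and 0.0756 CPM in batch 1 and to 0.324 and 0.342 CPM in batch 2, so low values in replicate 3 are the least precise. Adgre1 measured 273, 539 and 360 CPM in F4/80high against 243, 326 and 183 CPM in F4/80low, higher in F4/80high in 3 of 3 pairs, with a log2 fold change of 0.67 (edgeR adjusted p = 0.673).

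No interleukin receptor subunit passed the threshold between the subsets. With edgeR's quasi-likelihood test and a batch term, 0 of 28 members reached an adjusted p under 0.05 with an absolute log2 fold change above 1, beside 0 of 14776 genes (0% called). At an unadjusted p under 0.05 there were 2 members, Il17ra and Il31ra, both lower in F4/80high, beside 7.57% of all genes tested, or 4.3% for the lower direction alone. No member was higher in F4/80high at that level, beside 3.26% of genes. DESeq2 called 0 members beside 1.02% of genes, and edgeR with the replicate pairs as a block called 0 members beside 0.514%. The lowest adjusted p of a member in edgeR was 0.538, against 0.443 over all genes. The count at an unadjusted p under 0.05 was 6 members without F4/80high replicate 2, beside 7.02% of genes, and 4 without F4/80low replicate 2, beside 7.97%. It was 0 without F4/80high replicate 3, F4/80low replicate 1 or F4/80low replicate 3, beside 3.82%, 4.06% and 3.83% of genes.

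The median log2 fold change of the members was -0.08 (-0.07 without Il13ra2, which was at the floor of 3 counts), beside 0.01 over all genes, and 12 of 28 were higher in F4/80high, beside 50.8% of genes. In none of the 28 did the 3 libraries of one subset lie wholly above or below the other, which 2.27% and 2.88% of genes did. The median absolute log2 fold change was 0.39, beside 0.35 over all genes. The range of a member's log2 ratio over the 3 pairs had a median of 1.66, beside 1.06 over all genes. Of the 28 members, 5 kept the same direction in 3 of 3 pairs, beside 31.7% of genes. Higher in F4/80high were 2 members, Il21r and Il11ra1 (beside 16% of genes), and lower were 3, Il18rap, Il17rc and Il23r (beside 15.7%).

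**Figure D1:**
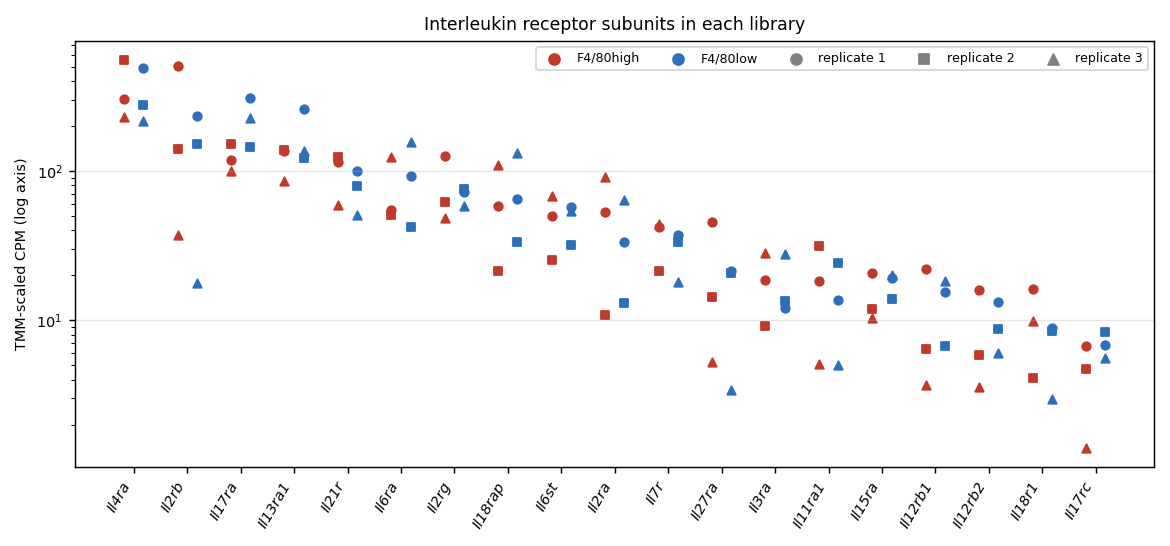
TMM-scaled CPM (log axis) of the 19 subunits with a mean of at least 5 CPM, with a point for each library, red for F4/80high, blue for F4/80low and shapes for the replicate number. The subsets overlap for each gene, and Il4ra stands first at 217 to 553 CPM.

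Per kilobase, Il4ra had the highest mean level of the family at 67.8 CPM per kb, with a range of 42.6 to 109 over the 6 libraries. Il2rb followed at a mean of 65.2 CPM per kb, but from 6.38 to 182, the widest range of the leading chains. Il17ra (44.0), Il13ra1 (39.5), Il21r (33.7) and Il2rg (31.0 CPM per kb) came next, and their ranges overlapped with each other and with the first pair of genes. Il3ra stood at 13.1 CPM per kb, and its highest library (20.3) lay just under the lowest of Il2rg (20.4). From Il3ra down to the 19th gene, Il18r1 at 1.75 CPM per kb, neighbours in the order had overlapping ranges. The other 9 members averaged under 5 CPM. Together the 28 members held between 0.0696% and 0.233% of the tested counts of a library.

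Il4ra, the chain that binds IL-4 and serves both IL-4 receptor types, measured 302, 553 and 232 CPM in F4/80high and 490, 277 and 217 CPM in F4/80low, with libraries listed here and for other genes in the order of replicates 1, 2 and 3. The subsets overlapped throughout, with F4/80low higher in pair 1 and F4/80high higher in pair 2. The log2 fold change was 0.14 ± 0.31 (SE, n = 3 per subset, edgeR adjusted p = 0.943), with a 95% interval from -0.56 to 0.83. Il4ra lies on chromosome 7 of GRCm38, from 125552120 to 125579474 on the plus strand, 24.0 kb from Il21r.

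Il13ra1, which joins Il4ra in the type II receptor for IL-4 and IL-13, measured 136, 137 and 86.1 CPM in F4/80high and 261, 122 and 136 CPM in F4/80low. F4/80high was lower in pairs 1 and 3 and slightly higher in pair 2, with a log2 fold change of -0.55 ± 0.29 (edgeR adjusted p = 0.699). Il13ra2, the chain known as a decoy for IL-13, had 0, 0 and 1 counts in F4/80high against 17, 0 and 0 in F4/80low, so that F4/80high was at or under the 3-count floor in each library. Per kilobase, Il4ra exceeded Il13ra1 in 6 of 6 libraries, by 1.62, 2.93 and 1.96 times in F4/80high and 1.37, 1.66 and 1.16 times in F4/80low. That ratio was higher in F4/80high in 3 of 3 pairs, although the ranges overlapped.

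Il2rg, the common gamma chain, measured 127, 62.4 and 48.6 CPM in F4/80high and 72.0, 75.5 and 58.1 CPM in F4/80low, with a log2 fold change of 0.16 ± 0.30 (edgeR adjusted p = 0.930). Apart from F4/80high replicate 1, its libraries lay within a narrow band. In the GENCODE M21 annotation the gene Gm20489 overlaps Il2rg on the same strand, so reads of the overlap cannot be assigned to one of them with certainty. Il4ra exceeded Il2rg per kilobase in 6 of 6 libraries, by 1.12 to 4.15 times.

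Il2rb, the signaling chain shared by the IL-2 and IL-15 receptors, varied most among the abundant members. It measured 508, 140 and 37.5 CPM in F4/80high and 235, 151 and 17.8 CPM in F4/80low. Its log2 ratio of F4/80high over F4/80low was 1.11 and 1.08 in pairs 1 and 3 and -0.11 in pair 2. The log2 fold change was 0.85 ± 0.43 (95% interval -0.12 to 1.82, edgeR adjusted p = 0.694), and 0.69 with the pairs as a block (unadjusted p = 0.033, edgeR adjusted p = 0.441). Without F4/80high replicate 1 it was 0.19, and without F4/80high replicate 2 it was 1.24. Il2rb lies on chromosome 15, from 78479256 to 78495271 on the minus strand.

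Il2ra, the high-affinity chain of the IL-2 receptor, measured 53.3, 10.9 and 90.7 CPM in F4/80high and 33.4, 13.1 and 64.3 CPM in F4/80low (log2 fold change 0.47 ± 0.54, edgeR adjusted p = 0.864). Its order over the experiments was unlike that of Il2rb, since replicate 3 was highest in both subsets on the TMM scale. Il15ra, which presents IL-15, measured 20.7, 12.0 and 10.4 CPM in F4/80high and 19.3, 13.9 and 20.0 CPM in F4/80low (log2 fold change -0.32 ± 0.35, edgeR adjusted p = 0.858). Il15ra lies 12.1 kb from Il2ra on the same strand of chromosome 2.

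The balance of the IL-2 receptor chains followed the experiment. The ratio of Il2ra to Il2rb per kilobase was 0.0380 to 0.0694 in the 4 batch 1 libraries. In batch 2 it was 1.18 in F4/80high and 1.77 in F4/80low. Thus the alpha chain exceeded the beta chain only in the 2 batch 2 libraries. Within pairs, the ratio of Il2ra to Il2rb was lower in F4/80high in 3 of 3, as was that of Il15ra to Il2rb, while that of Il2rb to Il2rg was higher in 3 of 3. These ratios share Il2rb and are not independent of each other. The ratios were chosen after the values were seen and are given as a description, with no test.

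**Figure D2:**
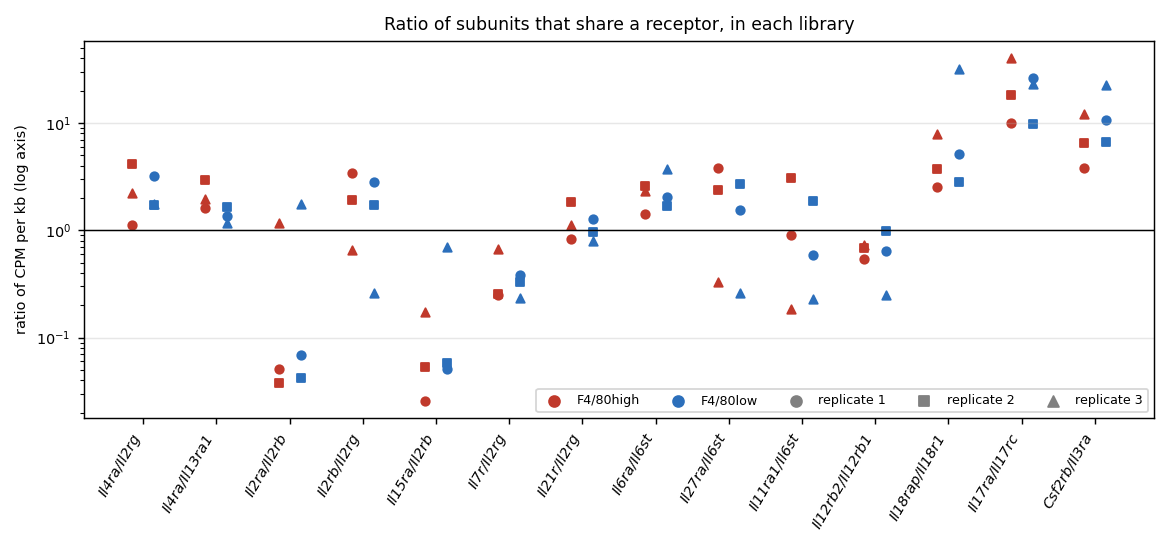
Ratio of CPM per kb (log axis) between 14 pairs of chains that share a receptor, in each library, red for F4/80high, blue for F4/80low and shapes for the replicate number. F4/80high and F4/80low overlap in each ratio, and both triangles of replicate 3 lie outside the range of the other libraries for Il2ra/Il2rb, Il2rb/Il2rg, Il15ra/Il2rb, Il27ra/Il6st, Il11ra1/Il6st, Il18rap/Il18r1 and Csf2rb/Il3ra.

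Il21r, the IL-21 chain, was higher in F4/80high in 3 of 3 pairs. It measured 114, 124 and 59.2 CPM in F4/80high and 99.9, 79.2 and 50.4 CPM in F4/80low, with pair ratios of 0.20, 0.65 and 0.23 on the log2 scale. The difference was within the spread of the libraries, with a log2 fold change of 0.35 ± 0.22 (95% interval -0.13 to 0.84, edgeR adjusted p = 0.716). Il7r, the IL-7 chain that also serves TSLP, measured 42.3, 21.5 and 43.8 CPM in F4/80high and 37.3, 33.5 and 18.1 CPM in F4/80low (log2 fold change 0.30 ± 0.37, edgeR adjusted p = 0.881). Il21r came close to Il2rg per kilobase, at 0.795 to 1.82 times its level, whereas Il7r stood at 0.232 to 0.671 times Il2rg in all 6 libraries. Il9r, the IL-9 chain, had 88, 2 and 0 counts in F4/80high against 44, 27 and 1 in F4/80low.

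Il6ra, the IL-6 binding chain, measured 54.4, 50.4 and 123 CPM in F4/80high and 92.1, 41.8 and 157 CPM in F4/80low. Replicate 3 was highest in both subsets on the TMM scale, and the log2 fold change was -0.35 ± 0.30 (edgeR adjusted p = 0.794). Il6st, the gp130 chain that transmits the signal of IL-6, IL-11 and IL-27, measured 49.6, 25.2 and 67.7 CPM in F4/80high and 57.5, 31.8 and 54.3 CPM in F4/80low (log2 fold change -0.07 ± 0.34, edgeR adjusted p = 0.977). Per kilobase, Il6ra exceeded Il6st in 6 of 6 libraries, by 1.41 to 3.72 times.

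Il27ra, the private chain of the IL-27 receptor, measured 45.2, 14.3 and 5.29 CPM in F4/80high and 21.3, 20.7 and 3.42 CPM in F4/80low (log2 fold change 0.54 ± 0.41, edgeR adjusted p = 0.776). It was higher in F4/80high in pairs 1 and 3 and lower in pair 2, as Il2rb was. Il11ra1, the IL-11 chain, measured 18.2, 31.4 and 5.07 CPM in F4/80high and 13.7, 24.1 and 5.01 CPM in F4/80low. It was higher in F4/80high in 3 of 3 pairs, but by 0.02 on the log2 scale in pair 3, and with DESeq2's size factors in edgeR it no longer was. Its log2 fold change was 0.28 ± 0.35 (edgeR adjusted p = 0.880), and its level is uncertain, because Il11ra2 is a near copy and Galt overlaps it on the same strand. Genes on the opposite strand overlap Il27ra (Palm3), Il12rb2 (Serbp1), Il17rb (Actr8), Il3ra (Gm48860), Il4ra (Gm44876) and Il6ra (Gm42809), and the use of strand in counting was not given, so their levels carry the same doubt. Gm37881 overlaps Il2ra and Gm3226 overlaps Il31ra on the same strand.

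Il31ra, the IL-31 chain, had 2, 14 and 0 counts in F4/80high against 82, 10 and 14 in F4/80low. F4/80low was higher in pairs 1 and 3 and the subsets were near equal in pair 2. The log2 fold change was -3.48 (95% interval -6.88 to -0.09, unadjusted p = 0.046, edgeR adjusted p = 0.651), a value that rests on few counts. With the pairs as a block the unadjusted p in edgeR was 0.101, and leaving out each library gave log2 fold changes from -4.98 (without F4/80high replicate 2) to -2.59 (without F4/80low replicate 1). Il31ra lies 9.8 kb from Il6st on the opposite strand of chromosome 13, and the pair ratios of these neighbours had the same sign in 1 of 3 pairs.

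Il17ra, the chain shared by the receptors of the IL-17 cytokines, had the lowest p of the members. It measured 118, 151 and 99.3 CPM in F4/80high and 309, 145 and 226 CPM in F4/80low. Its log2 ratio was -1.39 and -1.18 in pairs 1 and 3, while pair 2 was near equal at 0.06. The log2 fold change was -0.90 ± 0.31 (95% interval -1.59 to -0.21, unadjusted p = 0.017, edgeR adjusted p = 0.538), and the adjusted p was 0.351 with the pairs as a block in edgeR and 0.208 in DESeq2. Leaving out each library in turn gave log2 fold changes from -1.19 to -0.58. Il17ra lies on chromosome 6, from 120463247 to 120487559 on the plus strand.

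Il17rc, which pairs with Il17ra to bind IL-17A and IL-17F, measured 6.73, 4.71 and 1.40 CPM in F4/80high and 6.79, 8.37 and 5.58 CPM in F4/80low. It was lower in F4/80high in 3 of 3 pairs, with log2 ratios of -0.01, -0.83 and -1.98 and a log2 fold change of -0.87 ± 0.48 (edgeR adjusted p = 0.701). Per kilobase, Il17ra exceeded Il17rc by 9.90 to 40.5 times in the 6 libraries. Il17rb, Il17rd and Il17re had 135, 139 and 14 counts over the 6 libraries.

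Markers of other myeloid cells and of fibroblasts moved with the subsets beside these values. Neutrophil markers summed to 1746, 694 and 471 CPM in F4/80high and 3667, 2570 and 1019 CPM in F4/80low, lower in F4/80high for 8 of 8 markers, 7 of them at an unadjusted p under 0.05 in edgeR. With the batch term edgeR called 0 of the 8, with the pairs as a block it called 5 (Cxcr2, Mmp8, S100a9, Camp and S100a8), and DESeq2 called 4 (Camp, Ltf, Retnlg and Mmp8). The 5 eosinophil markers summed to between 83.9 and 169 CPM in F4/80high and between 241 and 572 CPM in F4/80low, and 5 of 5 were lower in F4/80high, of which DESeq2 called Siglecf, Prg2 and Ccr3 and edgeR none in either fit. Of their defining genes, Epx was at 0 in F4/80high replicate 1 and reached 1.45 CPM at most, while Ly6g of the neutrophils measured 1.19 to 8.87 CPM. Mast cell and basophil markers were lower in 8 of 8, fibroblast markers in 7 of 7 and dendritic cell markers in 7 of 9, of which Cd209a was called with the pairs as a block. Over all genes, 50.8% were higher in F4/80high and 4.3% were lower at an unadjusted p under 0.05 in edgeR. By pair, the neutrophil sum and Il17rc were lower in F4/80high in 3 of 3. So were the sums of eosinophil, mast cell and basophil, dendritic cell, fibroblast, endothelial cell and keratinocyte markers. Il17ra and Il31ra were lower in pairs 1 and 3 and near equal in pair 2. The part of these cells in the Il17ra, Il17rc and Il31ra values was not tested, and in bulk samples fewer cells of a type and less RNA per cell cannot be told apart.

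The IL-18 receptor is made of Il18r1, which binds IL-18, and Il18rap, the accessory chain that completes it. Il18rap measured 58.4, 21.5 and 110 CPM in F4/80high and 65.0, 33.5 and 132 CPM in F4/80low. It was lower in F4/80high in 3 of 3 pairs, with log2 ratios of -0.15, -0.64 and -0.26 and a log2 fold change of -0.29 ± 0.39 (edgeR adjusted p = 0.892). Il18r1 measured 16.3, 4.09 and 9.93 CPM in F4/80high and 8.92, 8.50 and 2.96 CPM in F4/80low, with pair ratios of 0.87, -1.05 and 1.74 and a log2 fold change of 0.68 ± 0.56 (edgeR adjusted p = 0.794). Leaving out F4/80high replicate 1 gave 0.13, and leaving out F4/80high replicate 2 gave 1.21. The neighbours thus had the same sign only in pair 2. Per kilobase, Il18rap exceeded Il18r1 in 6 of 6 libraries, by 2.56, 3.74 and 7.92 times in F4/80high and 5.20, 2.81 and 31.7 times in F4/80low.

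The genes lie 14.5 kb apart on the plus strand of chromosome 1. The bases before their starts are shown because these neighbours encode chains of the same receptor at unequal levels. The sequences are those of RefSeq on GRCm38.p6, 250 bases up to the start, 5′ to 3′, and the Il18r1 window is that of 1 of its 3 listed starts. Capitals mark matches to TTC and GAA with 4 bases between them, a spacing bound by STAT6, and to GAGGAAGT, a core bound by PU.1, on either strand. They are Il18r1 at chr1:40465302-40465551 and Il18rap at chr1:40515112-40515361.
Il18r1: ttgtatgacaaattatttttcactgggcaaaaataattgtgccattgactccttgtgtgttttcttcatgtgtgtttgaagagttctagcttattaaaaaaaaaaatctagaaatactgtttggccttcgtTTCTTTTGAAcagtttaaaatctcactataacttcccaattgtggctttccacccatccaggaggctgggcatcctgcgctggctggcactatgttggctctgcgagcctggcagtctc
Il18rap: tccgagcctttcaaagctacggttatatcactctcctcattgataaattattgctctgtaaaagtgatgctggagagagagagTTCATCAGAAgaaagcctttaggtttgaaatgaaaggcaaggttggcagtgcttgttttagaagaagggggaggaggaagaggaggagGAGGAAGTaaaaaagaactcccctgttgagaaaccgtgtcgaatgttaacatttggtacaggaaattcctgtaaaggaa
Both windows hold a match with the STAT6 spacing, and the Il18rap window also holds GAGGAAGT. Of the Il18r1 windows not shown, chr1:40465371-40465620 holds the same match, and chr1:40465756-40466005 holds TTCNNNGAA but not the STAT6 spacing. Of 32851 promoters of that length in the table, 5.85% hold the STAT6 spacing, 2.44% hold GAGGAAGT and 7.02% hold TTCNNNGAA, the general STAT spacing. Of the 23 members with an entry, Il18r1 and Il18rap held the STAT6 spacing, and 4 held TTCNNNGAA (Il12rb2, Il18r1, Il31ra and Il7r). Some members have more than 1 start, and by promoter 3 of 27 held the STAT6 spacing and 4 of 27 held TTCNNNGAA. Il2rb, Il17ra, Il27ra, Il12rb1 and Il22ra2 had no entry.

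Il12rb1, shared by the IL-12 and IL-23 receptors, measured 22.1, 6.44 and 3.67 CPM in F4/80high and 15.5, 6.73 and 18.2 CPM in F4/80low (log2 fold change -0.43 ± 0.68, edgeR adjusted p = 0.913). Its subsets differed mainly in pair 3, with a log2 ratio of -2.31. Il12rb2, the IL-12 signaling chain, measured 15.9, 5.82 and 3.56 CPM in F4/80high and 13.2, 8.72 and 6.03 CPM in F4/80low (log2 fold change -0.24 ± 0.46, edgeR adjusted p = 0.931). Il23r, the IL-23 chain, had 0, 7 and 0 counts in F4/80high against 22, 10 and 1 in F4/80low, lower in F4/80high in 3 of 3 pairs but on 40 counts in all. Il12rb2 stood at 0.251 to 0.981 times Il12rb1 per kilobase, under it in 6 of 6 libraries.

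Il3ra, the alpha chain for IL-3, measured 18.7, 9.10 and 28.3 CPM in F4/80high and 12.1, 13.6 and 27.9 CPM in F4/80low (log2 fold change 0.08 ± 0.32, edgeR adjusted p = 0.965). Its partner Csf2rb, the beta chain shared with the IL-5 and GM-CSF receptors, measured 244, 203 and 1181 CPM in F4/80high and 444, 305 and 2171 CPM in F4/80low. Csf2rb was lower in F4/80high in 3 of 3 pairs, with a log2 fold change of -0.79 ± 0.24 (edgeR adjusted p = 0.509), so that the ratio of Csf2rb to Il3ra was also lower in 3 of 3. Summed markers of neutrophils, eosinophils, mast cells and basophils, dendritic cells, fibroblasts, endothelial cells and keratinocytes were lower in F4/80high in the same 3 pairs. The mast cell and basophil sums were 224, 37.6 and 331 CPM in F4/80high and 526, 87.9 and 866 CPM in F4/80low. On the TMM scale these, like Csf2rb, were highest in replicate 3, where the neutrophil sums were lowest. The part of any of these cells in the Csf2rb value was not tested. Csf2rb2, also among the listed partner chains, was lower in F4/80high in 2 of 3 pairs. Its log2 fold change was -0.40 ± 0.24 (edgeR adjusted p = 0.716). Of the IL-20 and IL-22 chains, Il20rb averaged 3.48 CPM, with 83 counts in F4/80high replicate 3 against 2 in F4/80low replicate 3, and Il22ra2, the soluble chain known to bind IL-22, had 90 counts in all.

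**Figure D3:**
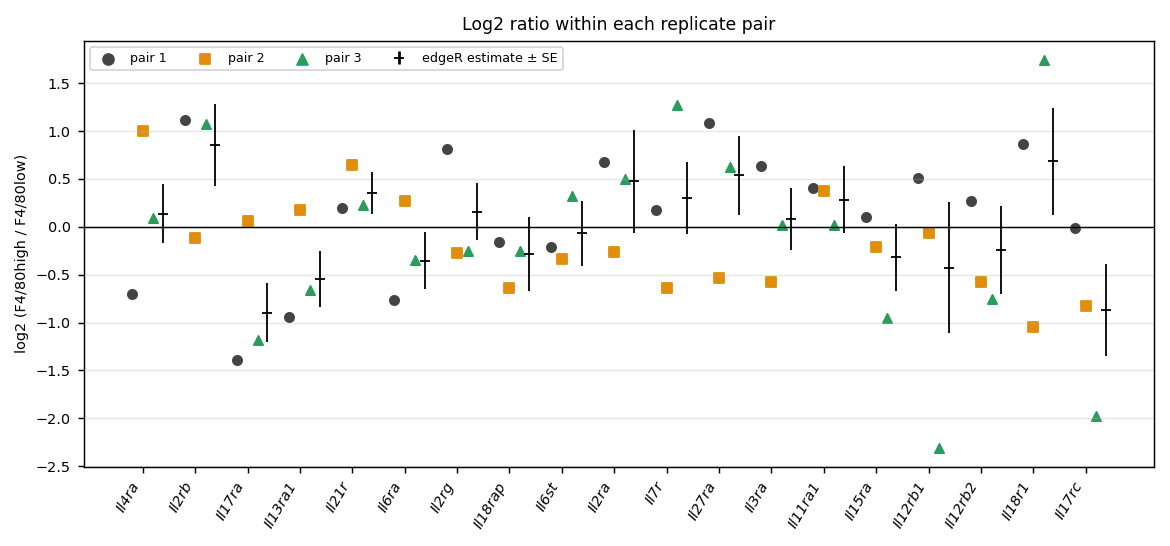
Log2 ratio of F4/80high over F4/80low within each replicate pair (symbols) and edgeR's log2 fold change with its SE (bars) for the 19 subunits with a mean of at least 5 CPM. The orange squares of pair 2 lie on the other side of 0 from pairs 1 and 3 for Il2rb, Il17ra, Il13ra1, Il6ra, Il2ra, Il7r, Il27ra, Il3ra and Il18r1.

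In 12 of 28 members, pair 2 had the opposite sign from pairs 1 and 3, beside 23.7% of genes. Pair 1 stood alone in this way in 8 members (21.4% of genes) and pair 3 in 1 member (16.1%). This pattern was chosen after the values were seen, and the 28 members were not tested against other genes for it. Among the 12, Il2rb, Il2ra, Il27ra, Il7r, Il3ra, Il18r1 and the low-count Il20rb and Il17rb were higher in F4/80high in pairs 1 and 3. Il17ra, Il13ra1, Il6ra and the low-count Il31ra were lower.

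The summed markers of T and NK cells had the same pair order as the first of these groups, though not each marker did, since Ncr1 had log2 ratios of 1.23, 0.05 and -0.45. Their 13 genes summed to 2094, 659 and 340 CPM in F4/80high and 749, 990 and 156 CPM in F4/80low. That is higher in F4/80high in pairs 1 and 3 and lower in pair 2. A positive log2 fold change was found in 13 of 13, beside 50.8% of all genes, with a median of 0.80. Of these, Cd3e, Cd8a and Lck had an unadjusted p under 0.05 in edgeR and none passed the adjusted threshold. None of the 13 was at 0 in any library, and Cd3e measured 14.6 to 163 CPM and Gzmb 42.5 to 554 CPM over the 6 libraries. B and plasma cell markers had the same pair order, with sums of 143, 60.6 and 10.9 CPM in F4/80high and 83.1, 131 and 6.60 CPM in F4/80low. The summed macrophage markers had the reverse order, F4/80high replicate 2 standing apart. They came to 7644, 22835 and 4589 CPM in F4/80high and 8632, 9904 and 4916 CPM in F4/80low. Lyz2 was the largest part of that sum, at 4666, 16106 and 2042 CPM in F4/80high and 5914, 6482 and 3230 CPM in F4/80low. Not each marker had this order, since 4 of the 8 macrophage markers were higher in F4/80high in 3 of 3 pairs. A lineage-negative gate is meant to remove such cells, and the study's antibody panel holds CD3e, NK1.1 and B220, though its methods do not list which antibodies made up the gate. The T and NK sum was lowest in replicate 3 of both subsets, as were Il2rb and Il27ra, whereas Il2ra and Il3ra were highest there on the TMM scale. With library size alone, the log2 fold changes of batch 2 over batch 1 were 0.44 for Il2ra and 0.04 for Il3ra. With TMM they were 1.48 and 1.08. The part of lymphocyte RNA in Il2rb, Il2ra, Il27ra, Il7r, Il3ra and Il18r1 was not tested.

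**Figure D4:**
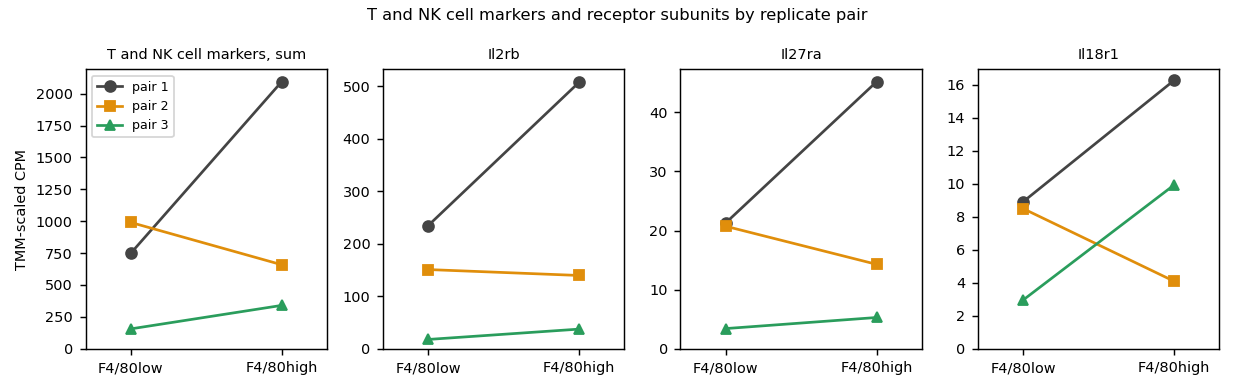
TMM-scaled CPM in F4/80low and F4/80high, joined by a line for each replicate pair, for the sum of 13 T and NK cell markers, Il2rb, Il27ra and Il18r1. In each panel the lines of pairs 1 and 3 go up toward F4/80high and that of pair 2 goes down, with the sum going from 990 to 659 CPM in pair 2.

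More members were called between experiments than between subsets, and the same held for all genes tested. Between batch 2 and batch 1, a comparison chosen after the values were seen, edgeR called 6 of 28 members, a smaller share than the 37.9% of all genes. The fit counted the libraries of a replicate number as independent, although they were taken as pairs from the same experiment. Its calls between batches therefore do not measure the spread between experiments. The log2 fold change of batch 2 over batch 1 was -3.27 for Il2rb, -2.55 for Il27ra and -2.10 for Il11ra1, which makes 3 members called lower beside 20.1% of genes. These 3 were called lower also with DESeq2's size factors and with library size alone. Il6ra, Il18rap and Il3ra were called higher in batch 2 (3 members beside 17.8% of genes), by 1.24, 1.44 and 1.08, but by 0.22, 0.41 and 0.04 and not called with library size alone. The median of all genes in this comparison was -0.35 with TMM, -0.16 with DESeq2's size factors and -1.37 with library size alone, so only differences relative to that median can be read. The marker sums of T and NK cells (340 and 156 CPM), B and plasma cells (10.9 and 6.60), neutrophils (471 and 1019) and macrophages (4589 and 4916) were lowest in replicate 3 of F4/80high and F4/80low. On the TMM scale, those of mast cells and basophils (331 and 866 CPM), fibroblasts (1539 and 1902), melanoma cells (168 and 106) and endothelial cells (81.7 and 87.2) were highest there. Those of eosinophils, dendritic cells and keratinocytes were neither in both subsets. The small TMM factors of replicate 3 (0.646 and 0.602) raise its CPM, and the sums were not taken with library size alone. A sum being highest there can therefore depend on the scaling. The part of any of these cell types in the batch values was not tested. Batch 2 is 1 experiment, so that the batch and the pooled mice of that experiment cannot be told apart.

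The listed ligands of these receptors summed to 72.1 to 128 CPM in F4/80high and 114 to 177 CPM in F4/80low. Of 28 interleukins and related cytokines listed, 20 were tested. The log2 fold change was negative in 17 of 20 and positive in 3, where 50.8% of all genes were higher in F4/80high. The median was -0.71 beside 0.01 over all genes. It was -0.56 with Il17a and Il22, at or under 3 counts in each F4/80high library, set to their bound. None of the ligands had an unadjusted p under 0.05 in edgeR, beside 7.57% of genes. In 3 of 3 pairs, 5 were lower in F4/80high, beside 15.7% of genes. Ebi3, a subunit of IL-27 and IL-35, measured 12.9, 6.15 and 3.02 CPM in F4/80high and 14.1, 13.9 and 9.79 CPM in F4/80low (log2 fold change -0.90 ± 0.42, edgeR adjusted p = 0.683). Il27 itself, the other IL-27 subunit, measured 5.17, 3.05 and 2.16 CPM in F4/80high and 4.96, 8.13 and 7.06 CPM in F4/80low (log2 fold change -0.99 ± 0.48, edgeR adjusted p = 0.690). Pairs 2 and 3 were lower in F4/80high for both genes, and pair 1 was near equal. Il22 was listed at 0 in the 3 F4/80high libraries and reached 0.64 CPM at most in F4/80low.

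Partner chains outside the name rule and the signaling genes gave no call either. Of 9 partner genes tested, 6 were lower in F4/80high and 3 higher, where 50.8% of all genes were higher. Only Csf2rb had an unadjusted p under 0.05 in edgeR, beside 7.57% of genes. Lifr, the LIF receptor chain that pairs with gp130, measured 25.6, 56.7 and 1764 CPM in F4/80high and 27.4, 22.8 and 1178 CPM in F4/80low, so that replicate 3 stood far above the others in both subsets. Of 18 kinases and transducers, 14 were lower in F4/80high and 4 higher, with a median log2 fold change of -0.23 beside 0.01 over all genes. In 3 of 3 pairs, 5 were lower (Jak2, Stat2, Stat5b, Stat3 and Myd88), beside 15.7% of genes. Jak2, the kinase of the IL-3 and IL-12 receptors, measured 99.5, 65.1 and 210 CPM in F4/80high and 234, 106 and 453 CPM in F4/80low. Its log2 fold change was -1.07 ± 0.32 (edgeR adjusted p = 0.509, and 0.073 with the pairs as a block). Jak1, the kinase used by most of these receptors, was near equal at a log2 fold change of -0.02 ± 0.23 (edgeR adjusted p = 0.993).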

How the data were processed

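RNA was sequenced from poly-A libraries of sorted TAMs. For each library the authors deposited raw read counts per gene with gene length and biotype, with no normalization. The aligner, counting tool and use of strand are not given in the sources used here. Members and gene lists were chosen with earlier results of these data known.

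Protein-coding genes (deposited biotype) with at least 10 counts over 6 libraries were fitted in R 4.3.3 with edgeR 4.0.16 (quasi-likelihood test, TMM, terms for batch and subset). A gene was called where its log2 fold change exceeded 1 in size and its p, adjusted after Benjamini and Hochberg, was under 0.05. SE is the absolute log2 fold change over the square root of F. Pair ratios used a prior count of 0.5. Members with a mean of at least 5 CPM are given in each library. Of the others, those in the same direction in 3 of 3 pairs or with an unadjusted p under 0.05 are given in counts. The rest are given as counts or levels. Of each other list, up to 3 genes with the smallest p per direction and Adgre1 were named. Stat3, Myd88, Jak1, Lyz2, the replicate 3 counts of Il20rb and markers given as ranges were named after their values were seen. So were the subunit ratios, neighbours and motifs chosen. DESeq2 1.42.0 and other settings were alternatives. Positions are from GENCODE M21 (GRCm38), in which the IDs of 28 members were found.

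The paper describes both subsets as sorted from pooled tumors in 3 independent experiments and does not state the pairing itself. Equal replicate numbers were taken as pairs. After subtraction of each subset's mean, the libraries of a pair correlated at 0.743, 0.728 and 0.906 in pairs 1, 2 and 3 over 10061 genes, although libraries of unequal number within batch 1 also correlated at 0.613 and 0.632. Between subsets, the p-values measure the spread between pooled samples. Between batches, they count the libraries of a pair as independent. Scripts were tested on simulated data.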

Additional observations from a re-analysis of the deposited data

How the results depend on the processing

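No member tested was called under any of the 15 alternatives to the main edgeR fit, which were DESeq2, its size factors, library size alone, filterByExpr, a minimum of 1 count, all biotypes, no batch term, the replicate block, batch 1 alone and the leaving out of each library. Of the 28 members, 25 were tested with filterByExpr and 26 without F4/80low replicate 1. With the replicate pairs as a block, 0 members were called and the lowest adjusted p was 0.351 in edgeR, so the pairing changed no call. Members with an unadjusted p under 0.05 numbered 2 with the batch term (7.57% of genes), 1 without it (1.76%), 0 in batch 1 alone (3.86%), and 0 to 6 when a library was left out (3.82% to 13.6%). Members higher in F4/80high in 3 of 3 pairs numbered 2, or 1 with DESeq2's size factors. Members called between batches numbered 6 (3 higher and 3 lower in batch 2, 37.9% of genes), or 7 with DESeq2's size factors (4 and 3, 36.5%) and 12 with library size alone (0 and 12, 49.3%), settings chosen after seeing the data.

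Of the 21 members given with a fold change or pair ratios, 12 changed sign when a library was left out. Their log2 fold changes ranged from -0.19 to 0.40 for Il4ra, -0.62 to 0.0301 for Il6ra, -0.25 to 0.36 for Il2rg, -0.79 to 0.0324 for Il18rap, -0.33 to 0.27 for Il6st and -0.39 to 0.94 for Il2ra. They ranged from -0.15 to 0.65 for Il7r, -0.0917 to 0.91 for Il27ra, -0.27 to 0.30 for Il3ra, -0.0558 to 0.52 for Il11ra1, -1.37 to 0.36 for Il12rb1 and -0.85 to 0.0237 for Il12rb2. In batch 1 alone, Il7r was at -0.15 and Il12rb1 at 0.36, and with library size alone Il6st was at 0.000235. The cause was not tested. Precision is limited by 3 libraries per subset and by the depth of replicate 3, where 3 counts are 0.324 and 0.342 CPM.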
